A study of Homo sapiens with 6 samples.

Results

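The genes followed here are 10 genes that the extracellular signal-regulated kinase (ERK) pathway induces, most of them its negative feedback regulators: the dual-specificity phosphatases *DUSP1*, *DUSP4*, *DUSP5* and *DUSP6*, the Sprouty genes *SPRY2* and *SPRY4*, the Sprouty-related genes *SPRED1* and *SPRED2*, and the immediate-early genes *PHLDA1* and *IER3*. They were taken by gene name, and all 10 were found among the 17222 gene names of the deposited count table. The libraries come from H226 cells, an established human line that the study describes as lung squamous carcinoma. The cells were transiently transfected with an antisense oligonucleotide (ASO) and collected 48 h later. One group of 3 libraries received the control oligonucleotide ASO_CTRL and the other group of 3 received ASO_LINC#3 (ASO_LINC below), which is directed against the long noncoding RNA *LINC00565*, named *SWINGN* in the study. The comparison asks which of these genes changed when *SWINGN* was targeted. A single oligonucleotide and a single cell line stand behind it, and the level of *SWINGN*, which would show its depletion, was not analysed here. The ASO_LINC libraries are called knockdown libraries below because the study used this oligonucleotide to deplete *SWINGN*. The study measured *SWINGN* in depleted H226 cells by RT-qPCR. Nothing in the labels says that the replicates are separate cultures, so p-values measure the spread between these libraries.

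ERK signaling runs from growth factor receptors through RAS, RAF and MEK to the ERK kinases, which enter the nucleus and switch on immediate-early genes. Among the genes that ERK activity induces are its own inhibitors. The dual-specificity phosphatases remove the activating phosphates from MAP kinases, whereas Sprouty and SPRED proteins act upstream, between the receptors and RAF. For this reason the mRNA levels of such genes are widely used as a readout of pathway output in tumor cells.

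Of the 10 genes, 9 rose after transfection of ASO_LINC and 0 fell, and *IER3* did not pass the test. In bulk RNA a rise in every cell and a rise in some of the cells cannot be told apart, nor can fewer cells of a kind and less RNA per cell. The test was the quasi-likelihood F-test of edgeR on 14660 genes, with Benjamini-Hochberg adjustment over all of them, and a gene counted as changed where its adjusted p was under 0.01 and its log2 fold change exceeded 0.5 in size. Standard errors (SE) are on the log2 scale. All 10 genes passed the filter on low counts. Across all tested genes, 4.91% were called higher and 2.63% lower, 7.54% in either direction. The median log2 fold change of the 10 genes was 1.42, against -0.003 over all genes tested. In each of the 10 the CPM (the read count relative to the scaled library size) of the ASO_LINC libraries lay above those of every ASO_CTRL library, a pattern seen in 18.7% of all tested genes. For a gene taken alone, groups of 3 libraries allow no two-sided p below 0.1 in an exact permutation test, and each of the 10 genes had this value. The count of 9 went down to 6 in the fit without ASO_CTRL replicate 3. In that fit, calls over all tested genes also went down, from 1106 of 14660 to 359 of 14854.

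**Figure D1:**
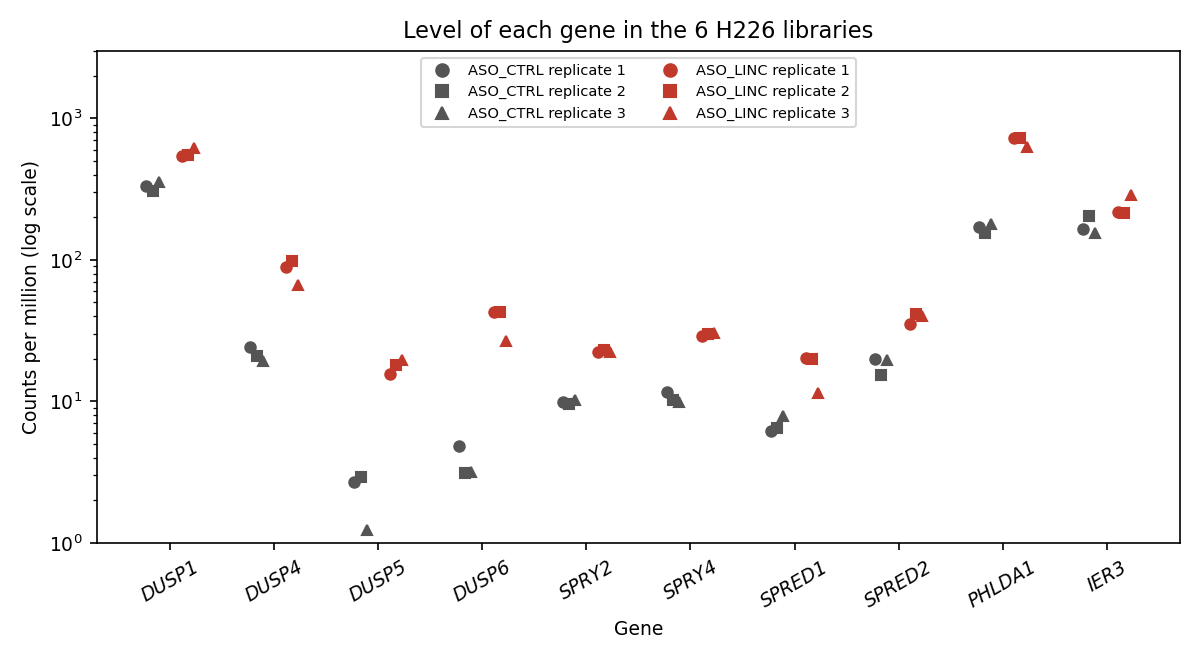
Level of each gene in every library, in CPM on a log axis, with ASO_CTRL in gray, ASO_LINC in red and one marker shape per replicate number. The red markers lie above the gray ones for each of the 10 genes, with the widest gaps for *DUSP5* and *DUSP6* and the narrowest for *IER3*.

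The promoters of 3 genes are shown because they stand for the abundant phosphatase (*DUSP1*), the gene with the largest increase (*DUSP6*) and the gene with the smallest p-value (*PHLDA1*). They are the 250 bases before the annotated start, 5′ to 3′, from RefSeq on GRCh38.p14, a later build than the hg19 of the read alignment. All 3 are on the minus strand of their chromosome, at chr5:172771196-172771445 for *DUSP1*, chr12:89352502-89352751 for *DUSP6* and chr12:76031777-76032026 for *PHLDA1*. Capitals mark letters found for 1 of 4 motifs searched on both strands: AP-1 (TGACTCA), the cyclic AMP response element (TGACGTCA), an ETS motif (CCGGAA) and the CArG box. Shorter or variant forms of these motifs were not searched.
*DUSP1*: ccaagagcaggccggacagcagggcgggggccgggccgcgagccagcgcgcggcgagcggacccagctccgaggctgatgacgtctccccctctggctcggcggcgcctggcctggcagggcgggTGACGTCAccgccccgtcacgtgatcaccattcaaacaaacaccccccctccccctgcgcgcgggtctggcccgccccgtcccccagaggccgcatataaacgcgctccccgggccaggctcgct
*DUSP6*: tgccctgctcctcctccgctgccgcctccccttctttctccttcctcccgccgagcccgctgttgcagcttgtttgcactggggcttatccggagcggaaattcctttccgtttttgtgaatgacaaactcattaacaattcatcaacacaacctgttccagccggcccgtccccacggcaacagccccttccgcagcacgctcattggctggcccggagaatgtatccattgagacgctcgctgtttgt
*PHLDA1*: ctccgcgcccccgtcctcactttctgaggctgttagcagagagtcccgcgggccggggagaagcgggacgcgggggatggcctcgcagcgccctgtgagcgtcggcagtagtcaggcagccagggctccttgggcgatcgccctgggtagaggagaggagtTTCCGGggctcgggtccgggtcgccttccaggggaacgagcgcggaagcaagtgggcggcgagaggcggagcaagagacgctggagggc

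The capitals of the *DUSP1* promoter are the cyclic AMP response element, whose first base lies 125 bases before the start. Those of the *PHLDA1* promoter are the ETS motif on the opposite strand, 89 bases before the start. The *DUSP6* stretch held none of the 4 motifs in the exact letters searched, which leaves shorter forms uncounted. Windows of 300 bases, which also take in 50 bases after the start, were found for 7 of the 10 genes, 10 windows in all since *SPRY2* and *SPRED2* have more than 1 start. The cyclic AMP response element was in 1 of these 10 windows, AP-1 in 1 (*SPRED2*), the ETS motif in 2 (*PHLDA1* and *SPRY2*) and the CArG box in 0. Of all 35116 windows, 1.85% held the cyclic AMP response element, 4.95% AP-1, 17.2% the ETS motif and 1.29% the CArG box. A match of letters is a description of the sequence and not a measured binding site.

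*DUSP6* and *DUSP5*, both ERK-specific phosphatases, had the largest increases of the group. *DUSP6*, which acts in the cytoplasm, lies at chromosome 12, 89741012 to 89746278 (GRCh37, minus strand). It had 4.85, 3.10 and 3.15 CPM in ASO_CTRL replicates 1, 2 and 3, and 43.1, 43.1 and 26.8 CPM in the ASO_LINC replicates. The knockdown libraries were far above the controls, and ASO_LINC replicate 3 was the lowest of them. The mean went from 3.70 ± 1.00 CPM (SD, n = 3) to 37.7 ± 9.38 CPM (SD, n = 3), a 10.3-fold increase with a log2 fold change of 3.36 (SE 0.26, edgeR adjusted p = 2.77e-05). By log2 fold change it ranked 24 of the 14660 genes tested. *DUSP5*, a nuclear phosphatase at chromosome 10, 112257665 to 112271291 (GRCh37, plus strand), had 20, 17 and 13 reads in the control libraries and 106, 105 and 72 in the knockdown libraries. In CPM these were 2.69, 2.93 and 1.24 against 15.6, 18.0 and 19.5, so here replicate 3 was the highest knockdown library. The log2 fold change of *DUSP5* was 3.01 (SE 0.29, edgeR adjusted p = 0.000102), an 8.04-fold increase. Its standard error was the largest of the 10.

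*DUSP4* and *DUSP1*, both phosphatases of the nucleus, started from higher levels and changed less. *DUSP4*, at chromosome 8, 29190581 to 29208201 (GRCh37, minus strand), had 24.4, 20.8 and 19.4 CPM in the ASO_CTRL replicates and 88.8, 98.2 and 65.9 CPM in the ASO_LINC replicates. The groups were well apart, with ASO_LINC replicate 3 again the lowest knockdown library. Its log2 fold change was 1.98 (SE 0.18, edgeR adjusted p = 7.11e-05), a 3.93-fold increase. *DUSP1*, which also acts on the p38 and JNK kinases, lies at chromosome 5, 172195099 to 172198198 (GRCh37, minus strand). It had 334, 307 and 354 CPM in the controls and 544, 550.0 and 612 CPM in the knockdown libraries, and the groups did not overlap. The mean went from 332 ± 23.3 CPM (SD, n = 3) to 569 ± 37.6 CPM (SD, n = 3), a log2 fold change of 0.78 (SE 0.12, edgeR adjusted p = 0.00176) or a 1.71-fold increase. This call was lost without ASO_CTRL replicate 2 (edgeR adjusted p = 0.0113) and without ASO_CTRL replicate 3 (edgeR adjusted p = 0.0116).

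**Figure D2:**
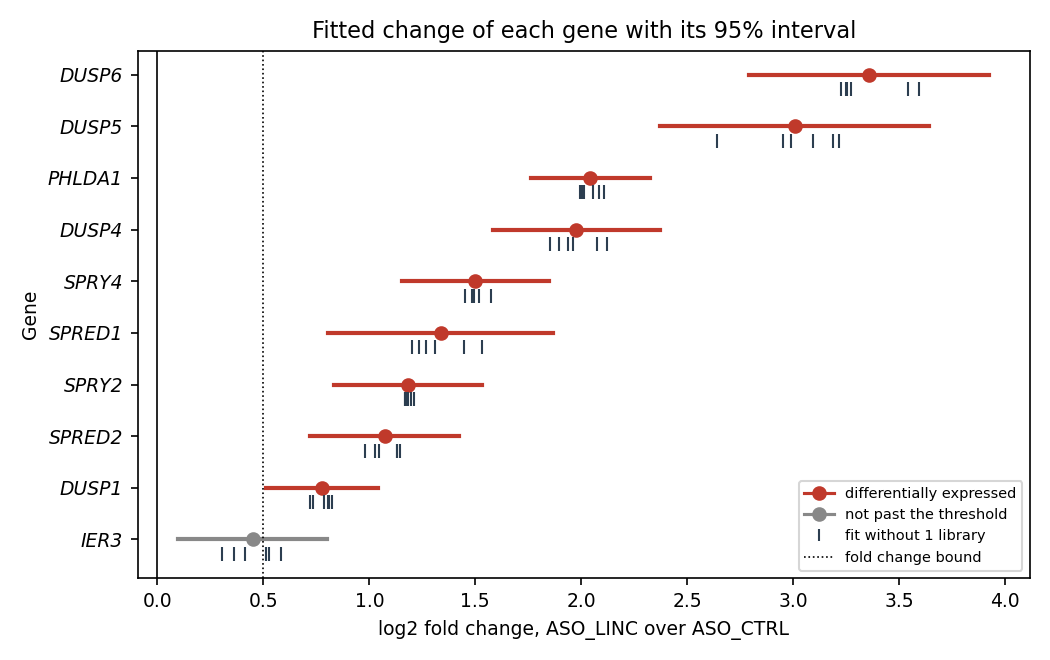
Fitted log2 fold change of each gene, ASO_LINC over ASO_CTRL, with its 95% interval as a bar, and below each bar the values of the 6 fits that each left out 1 library as ticks. The intervals of *DUSP6*, *DUSP5*, *PHLDA1* and *DUSP4* lie above those of *SPRED2* and *DUSP1*, and the *IER3* interval spans the dotted fold change bound of 0.5.

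Taken per kilobase of transcript, the 4 phosphatases kept their order from *DUSP1* down to the others, while their proportions shifted. The order of *DUSP6* and *DUSP5* is not clear, since *DUSP5* was the higher of them per kilobase in ASO_CTRL replicate 2 and ASO_LINC replicate 3. *DUSP1* went from 165 to 283 CPM per kb, *DUSP4* from 3.88 to 15.2, *DUSP6* from 1.02 to 10.4 and *DUSP5* from 0.923 to 7.14. *DUSP1* made up 96.6 ± 0.657% of their summed level per kb in ASO_CTRL and 89.6 ± 1.96% in ASO_LINC (SD, n = 3 in each group). The share of *DUSP6* went from 0.598 ± 0.155% to 3.32 ± 0.943% and that of *DUSP5* from 0.551 ± 0.244% to 2.26 ± 0.171%. First strand synthesis used oligo-dT, so a level per kilobase depends on how far the reads extend from the transcript end.

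To see whether related genes changed by the same amount, log2 ratios were taken within each library, where the scaling of the library cancels. In the controls, log2 *DUSP6* over *DUSP1* was -6.02, -6.50 and -6.68, and in the knockdown libraries it was -3.65, -3.66 and -4.50. This ratio therefore shifted by 2.46 on the log2 scale with no overlap between the groups. The shift was 2.09 for *DUSP5* over *DUSP1*, 1.16 for *DUSP4* over *DUSP1*, 1.30 for *DUSP6* over *DUSP4* and 0.92 for *DUSP5* over *DUSP4*, each without overlap. For *DUSP6* over *DUSP5* the groups overlapped, at 0.67 ± 0.55 in ASO_CTRL and 1.05 ± 0.53 in ASO_LINC (SD, n = 3 in each group; exact permutation test, two-sided p = 0.5). Of 9 pairs of related genes compared in this way, 7 had groups that did not overlap. Pairs of phosphatases share their genes, so they are not separate observations. The share without overlap over all pairs of genes was not computed. Of the 14660 single genes tested, 2748 had no overlap in the higher direction and 2541 in the lower. Each of the 7 pairs without overlap had an exact two-sided permutation p of 0.1, the smallest possible. After Benjamini-Hochberg adjustment over the 9 pairs this was 0.129. Groups of this size cannot reach 0.05 in that test, whatever the size of the shift.

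**Figure D3:**
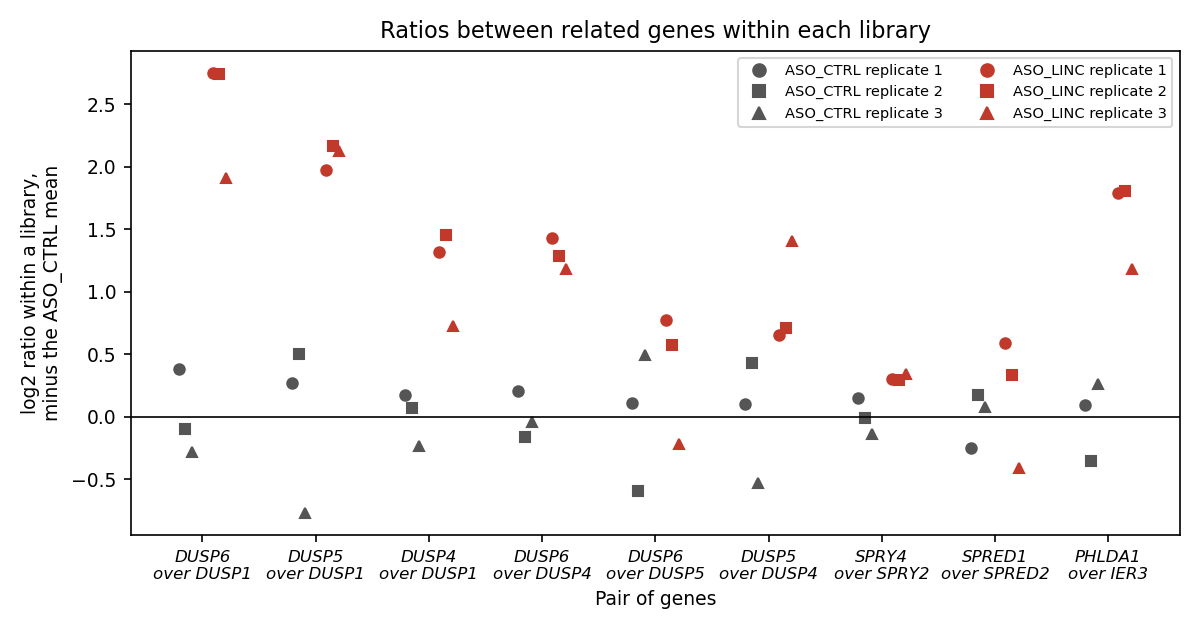
Log2 ratio of 2 related genes within each library, minus the mean of the ASO_CTRL libraries, for 9 pairs, with the same colors and marker shapes as in the plot of levels. The red markers lie above the gray ones for 7 pairs and overlap with them for *DUSP6* over *DUSP5* and *SPRED1* over *SPRED2*.

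The Sprouty genes encode membrane-associated inhibitors of receptor tyrosine kinase signaling. *SPRY4*, at chromosome 5, 141689992 to 141706020 (GRCh37, minus strand), had 11.6, 10.2 and 9.92 CPM in the ASO_CTRL replicates and 29.1, 30.1 and 30.4 CPM in the ASO_LINC replicates. *SPRY2*, at chromosome 13, 80910111 to 80915261 (GRCh37, minus strand), had 9.83, 9.64 and 10.3 CPM against 22.2, 23.1 and 22.5 CPM. Both had tight replicates in either group. The log2 fold change of *SPRY4* was 1.499 (SE 0.16, edgeR adjusted p = 0.000176), a 2.83-fold increase. That of *SPRY2* was 1.18 (SE 0.16, edgeR adjusted p = 0.00075), a 2.27-fold increase. The log2 ratio of *SPRY4* over *SPRY2* was 0.08 ± 0.14 in ASO_CTRL and 0.40 ± 0.03 in ASO_LINC (SD, n = 3 in each group), one of the pairs without overlap. With any 1 library removed, both genes stayed past the thresholds, between 1.45 and 1.57 for *SPRY4* and between 1.17 and 1.21 for *SPRY2*.

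The SPRED proteins carry a Sprouty-like domain and bring neurofibromin, a RAS GTPase-activating protein, to the membrane. *SPRED2*, at chromosome 2, 65537985 to 65659771 (GRCh37, minus strand), had 19.8, 15.5 and 19.7 CPM in the ASO_CTRL replicates and 35.3, 41.2 and 40.1 CPM in the ASO_LINC replicates. Its log2 fold change was 1.07 (SE 0.16, edgeR adjusted p = 0.00139), and it narrowly lost its call without ASO_CTRL replicate 3 (edgeR adjusted p = 0.0103). *SPRED1*, at chromosome 15, 38545037 to 38649450 (GRCh37, plus strand), had 6.20, 6.54 and 7.82 CPM in the controls and 20.3, 19.9 and 11.4 CPM in the knockdown libraries. Replicate 3 lay between the controls and the other knockdown libraries. The log2 fold change of *SPRED1* was 1.34 (SE 0.24, edgeR adjusted p = 0.00419). It is the called gene that depended most on single libraries, since it kept its call in only 1 of the 6 fits that left out a library, that without ASO_LINC replicate 3 (log2 fold change 1.53, edgeR adjusted p = 8.35e-05), while edgeR gave it an adjusted p between 0.0169 and 0.0263 in each of the other 5. The log2 ratio of *SPRED1* over *SPRED2* overlapped between the groups (exact permutation test, two-sided p = 0.6).

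*PHLDA1*, which encodes a pleckstrin homology-like protein and responds early to growth factors, had the smallest p-value of the 10 genes. It lies at chromosome 12, 76419227 to 76425556 (GRCh37, minus strand). The ASO_CTRL replicates had 171, 155 and 179 CPM and the ASO_LINC replicates had 729.8, 724 and 627 CPM, so the groups were far apart and their replicates close. The mean went from 168 ± 12.1 to 694 ± 58.1 CPM (SD, n = 3 in each group), a 4.12-fold increase with a log2 fold change of 2.04 (SE 0.13, edgeR adjusted p = 7.53e-06). Over the 6 libraries, the genes whose log2 changes lay nearest to those of *PHLDA1* were *CDCP1*, *VEGFA*, *BNIP3*, *MT2P1* and *BTG1*, at Euclidean distances from 0.158 to 0.288 and with log2 fold changes from 1.89 to 2.18. *MT2P1* is a metallothionein pseudogene, so its reads are uncertain.

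*IER3*, a stress-inducible gene whose product is an ERK substrate, had the smallest change. It lies at chromosome 6, 30710976 to 30712325 (GRCh37, minus strand). The ASO_CTRL replicates had 166, 205 and 154 CPM and the ASO_LINC replicates had 218, 214 and 286 CPM. The groups did not overlap, but ASO_CTRL replicate 2 and ASO_LINC replicate 2 were close. The log2 fold change was 0.45 with a 95% interval from 0.10 to 0.80 (SE 0.16, edgeR adjusted p = 0.0743). A change of the size found for *DUSP1* is inside this interval, whereas that of *PHLDA1* is outside it. Within the libraries, log2 *PHLDA1* over *IER3* was -0.05 ± 0.32 in ASO_CTRL and 1.54 ± 0.36 in ASO_LINC (SD, n = 3 in each group), with no overlap. *IER3* overlaps 440 bp of exons of *IER3-AS1* and 85 bp of *HCG20* on the opposite strand, and *PHLDA1* overlaps 553 bp of *PHLDA1-AS1* and *DUSP6* 1105 bp of an unnamed noncoding RNA in the same way. The strand setting of the counting is not given in the sources used here. Reads of these 3 genes that lie within the overlaps therefore cannot be told apart from those of the antisense partners. The overlaps are a part of each gene, whose transcripts have 1237 nt (*IER3*), 5913 nt (*PHLDA1*) and 3627 nt (*DUSP6*).

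ASO_LINC replicate 3 has the fewest reads, 3686828 on genes against 5738340 to 10546786 in the other 5 libraries, and it deviated from the other knockdown libraries in both directions. Relative to the mean of replicates 1 and 2, its log2 change was lower by 0.80 for *SPRED1* (a difference of -0.80), by 0.68 for *DUSP6* (-0.68) and by 0.50 for *DUSP4* (-0.50), and it was higher by 0.40 for *IER3* and 0.22 for *DUSP5*. These differences followed the GC content of the transcripts, which was 36.3% for *SPRED1* and 58.1% for *IER3*, with a Spearman rho of 0.88 across the 10 genes, which share the libraries. Once the trends with GC content and transcript length had been removed library by library, the median absolute difference went from 0.22 to 0.07 on the log2 scale. The difference was then 0.02 for *IER3*, while it was still -0.53 for *DUSP6*, -0.53 for *DUSP4* and -0.39 for *SPRED1*. With this correction, all 10 genes were called, *IER3* at a log2 fold change of 0.52 (edgeR adjusted p = 0.00902). Calls over all 14660 tested genes also went up, from 1106 to 1744. When a term for the replicate number was added to the corrected fit, *IER3* was not called (edgeR adjusted p = 0.0215).

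The wider pathway was described with 5 lists of genes read from the same fit, which were chosen with earlier results known. Beside each count stand the shares over all tested genes, 4.91% called higher and 2.63% called lower. Of 16 tested ERK target genes, 11 rose and 1 fell, with a median log2 fold change of 1.13. The transcription factor genes *KLF6*, *JUNB* and *FOS* rose by 1.48, 1.59 and 3.32 on the log2 scale (edgeR adjusted p = 3.30e-05, 5.37e-05 and 5.37e-05), and *PLAUR*, the urokinase receptor, rose by 1.42 (edgeR adjusted p = 7.21e-05). The gene that fell was *EPHA4*, an ephrin receptor, at -1.24 (edgeR adjusted p = 0.00056), which is named here after its values were seen. *MYC* had a log2 fold change of 0.57 without overlap between the groups and just missed the threshold (edgeR adjusted p = 0.0144). *IER5* and *CCND1* had 0.36 and -0.05 and did not pass. The count of 12 called genes was 7 in the fit without ASO_CTRL replicate 3, where calls over all tested genes fell from 1106 to 359.

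Of 10 tested paralogues of the feedback genes, 1 rose and 0 fell, and their median log2 fold change was 0.27. For so few genes this count is close to the 4.91% called higher over all tested genes. *PHLDA2*, a relative of *PHLDA1*, rose from 120.4 ± 13.2 CPM (SD, n = 3) to 234 ± 2.19 CPM (SD, n = 3), a log2 fold change of 0.96 (SE 0.13, edgeR adjusted p = 0.000735). *DUSP7*, like *DUSP6* a cytoplasmic ERK phosphatase, had a log2 fold change of 0.01 with a 95% interval from -0.32 to 0.35, *DUSP16* had 0.11 (-0.31 to 0.52) and *PHLDA3* had 0.43 (-0.17 to 1.02). *DUSP8*, named after its values were seen, was at 0.92 (edgeR adjusted p = 0.0172) and just missed the threshold. *DUSP10* had no row among the gene names of the count table.

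Among 8 other negative regulators of the pathway, 2 rose and 0 fell, with a median log2 fold change of 0.32. *ERRFI1*, a feedback inhibitor of the EGF receptor, rose from 17.5 ± 0.703 CPM (SD, n = 3) to 85.4 ± 19.5 CPM (SD, n = 3), a log2 fold change of 2.29 (SE 0.18, edgeR adjusted p = 3.30e-05). *CBL*, a ubiquitin ligase of activated receptors, rose by 0.59 (edgeR adjusted p = 0.00818). *PEBP1*, an inhibitor of the cascade, had a log2 fold change of -0.66 (edgeR adjusted p = 0.0121), and *RASAL2* and *NF1* had 0.04 and -0.14. The count of 2 was 4 in the fit without ASO_LINC replicate 3, where 2616 genes were called over all tested, against 1106 with every library. It was 1 in each of the fits that left out another library, where 359 to 531 genes were called over all tested.

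Of the 19 genes of the cascade itself, from adaptors to ERK and its substrate kinases, 1 rose and 0 fell, and the median log2 fold change was 0.05. This count too is close to the 4.91% called higher over all tested genes. The gene that rose was *MAP2K1*, which encodes the kinase MEK1, from 78.3 ± 7.53 to 223 ± 49.2 CPM (SD, n = 3 in each group), a log2 fold change of 1.51 (SE 0.17, edgeR adjusted p = 0.000312). Among the others, *SHC1* and *PTPN11* had log2 fold changes of 0.07 and -0.08. Without ASO_LINC replicate 3, 1 further gene of the cascade was called, in the lower direction, while calls over all tested genes went from 1106 to 2616.

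Of 16 tested receptors and ligands, 4 rose and 2 fell, with a median log2 fold change of -0.04. The EGF receptor ligands *HBEGF* and *TGFA* rose by 1.11 and 1.41 on the log2 scale (edgeR adjusted p = 0.000561 and 0.00129). The receptor genes *ERBB3* and *PDGFRB* fell by 1.82 and 1.53 (edgeR adjusted p = 0.000533 and 0.000305). Another receptor gene, *FGFR1*, rose by 0.69 (edgeR adjusted p = 0.00314), from 170 to 273 CPM. The ligand *AREG* rose by 1.94 (edgeR adjusted p = 0.00213) from a low level of 0.963 CPM. Both were named after their values were seen. *EGFR*, *FGF2* and *MET* had log2 fold changes of 0.24, 0.04 and 0.00 with 95% intervals from -0.07 to 0.54, from -0.26 to 0.35 and from -0.30 to 0.31. The count of 6 called genes was 3 in the fit without ASO_CTRL replicate 3, where 359 genes were called over all tested, against 1106 with every library.

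**Figure D4:**
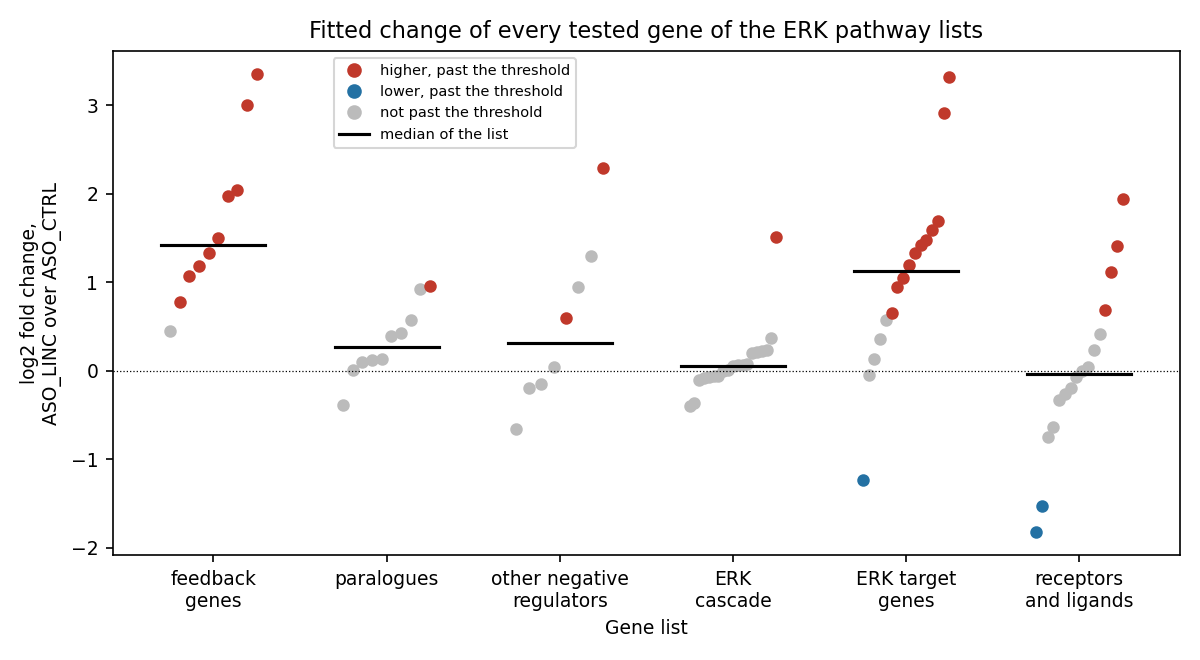
Fitted log2 fold change, ASO_LINC over ASO_CTRL, of each tested gene of the 10 feedback genes and of the 5 pathway lists, with genes called higher in red, genes called lower in blue, other genes in gray and a bar at the median of each list. The medians of the feedback genes and the ERK target genes are 1.42 and 1.13, and those of the other 4 lists are between -0.04 and 0.32.

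Some properties of whole libraries differed along with the groups, and their part in the changes above was not tested. Reads from mitochondrial genes made up 3.01% to 3.45% of the ASO_CTRL libraries and 1.85% to 2.01% of the ASO_LINC libraries, and reads assigned to no gene 24.8% to 26.3% and 27.9% to 28.1% of the totals. Of 8 squamous markers, 3 had a row in the table and 2 were tested, *KRT5* at 103 ± 12.3 CPM (SD, n = 3) in ASO_CTRL among them, with a log2 fold change of -0.58 (edgeR adjusted p = 0.0192). *KRT6A* had 0, 0 and 1 reads in ASO_CTRL and 14, 5 and 4 in ASO_LINC, and *TP63*, *SOX2*, *KRT14*, *DSG3* and *PKP1* had no row. All 8 markers of simple epithelium and mesothelium were measured, at a summed level of 12406, 13475 and 12734 CPM in ASO_CTRL and 7693, 7312 and 12756 CPM in ASO_LINC. The sum in ASO_LINC replicate 3 was thus at the level of the controls. In every library it came mostly from keratins. *KRT18* and *KRT7* had 5260 and 3769 CPM in ASO_LINC replicate 3, and 4974 and 3612 CPM in ASO_CTRL replicate 1. Of the 8 markers, *CALB2* (calretinin) was called lower, from 601 to 154 CPM with a log2 fold change of -1.97 (edgeR adjusted p = 0.000195). *UPK3B*, named after its values were seen, was at -0.92 without overlap between the groups and just missed the threshold (edgeR adjusted p = 0.0104). In ASO_LINC replicate 3, *CALB2* and *UPK3B* were below every control, at 208 and 35.2 CPM against 516 to 698 and 43.9 to 52.8 CPM. *WT1* was also below (29.6 against 39.6 to 51.6 CPM) and *MSLN* above (49.6 against 26.8 to 30.8 CPM). Of 8 leukocyte and endothelial markers only *CD14* had a row, with 1.77 CPM in ASO_CTRL and 1.48 CPM in ASO_LINC.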

How the data were processed

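RNA-seq libraries were made from total RNA of H226 cells, 6 in all, with first strands primed by oligo-dT. The authors aligned single-end reads to hg19 with STAR and deposited raw counts per gene name, without normalization; the counting tool, annotation and strand setting are not given in the sources used here. Reads assigned to no gene, 24.8% to 28.1% of each library, were left out. ASO_LINC was tested against ASO_CTRL with edgeR 4.0.16 under R 4.3.3 (filterByExpr, TMM, quasi-likelihood F-test, no block), with Benjamini-Hochberg adjusted p-values. CPM are given as mean ± SD. For a single library, the change is its log2 CPM (prior count 2) less the mean of the controls. Depth ranged from 3686828 to 10546786 reads on genes, and 1 read stood for 0.095 to 0.271 CPM. Replicates of a condition differed by more than sampling noise (chi-square per degree of freedom from 2.50 to 14.0). The fit was also run on simulated counts with a single dispersion for all genes and no trend with GC content. That run does not cover the deviation of ASO_LINC replicate 3. Gene coordinates, transcript lengths and their GC content were read from GENCODE lifted to GRCh37, with a value for 87.2% of the tested genes. From each list, the called genes with the 4 smallest p-values and the 3 most counted uncalled genes were named, with the 5 genes nearest to *PHLDA1* over the 6 libraries; 1 gene so chosen is not reported here. The genes, lists and tests were chosen with earlier results of these data known. Alternatives were DESeq2 1.42.0, limma-voom (limma 3.58.1), other scalings, filters and thresholds, glmTreat, the replicate block, a GC and length correction and leaving out each library.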

Additional observations from a re-analysis of the deposited data

How the results depend on the processing

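Of the 20 alternatives, the 9 called genes were called again under all but the following. A test against a log2 fold change of 0.5 (glmTreat) left 6 of them, without *DUSP1*, *SPRED1* and *SPRED2*. The fits without 1 library left from 6 to 9, with medians from 1.36 to 1.51. *DUSP4*, *DUSP5*, *DUSP6*, *SPRY2*, *SPRY4* and *PHLDA1* were called under each of the 20 alternatives, and no gene of the 10 changed direction. *IER3* was called only with the GC and length correction, and not when this was combined with the replicate block (edgeR adjusted p = 0.0215). The correction moved the median of the 10 genes to 1.31, alone or with the block, and the calls over all genes from 1106 to 1744, with 2 paralogues called. Over all genes, 2465 were called at an adjusted p-value below 0.05, with 2 paralogues and 5 other negative regulators, and 384 with glmTreat, with 0 paralogues and 1 other negative regulator. The 6 fits on 5 libraries gave 359 genes at the lowest, when ASO_CTRL replicate 3 was missing, and 2616 at the highest, when ASO_LINC replicate 3 was, with 1 paralogue, 1 to 4 other negative regulators, 1 to 2 cascade genes, 7 to 14 target genes and 3 to 6 receptors and ligands. DESeq2 called 1597 genes over all, 9 of the 10 feedback genes among them. The replicate numbers were treated as names, because libraries of the same number did not deviate together (r = 0.06, -0.15 and -0.18 for replicates 1, 2 and 3, across genes) and only 1 of the 6 libraries, ASO_CTRL replicate 1, correlated best with its own number. A replicate block gave 656 genes, 8 of the 10 (*SPRED1* at an edgeR adjusted p of 0.0112) and 1 other negative regulator. The causes of these shifts were not tested. For *DUSP5* the depth limits precision, with 13 to 20 reads in the controls.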
